A study of Mus musculus with 27 samples.

Results

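The genes described here are 5 globins and 4 genes that govern red cell formation or haemoglobin synthesis, followed in whole mouse embryos that carried or lacked active DNMT3B, one of the enzymes that place new methyl groups on CpG sites. They were taken by name from a table of 24065 genes, and all 9 were found in it. The globins were Hba-x, Hba-a1, Hba-a2, Hbb-y and Hbb-bh1, and the other genes were Gata1, Klf1, Alas2 and Epor. RNA-Seq had been made from 3 WT and 3 Dnmt3b-/- littermate embryos at E8.5, on a C57BL/6J background, with 1 library for each whole embryo and no pooling. The Dnmt3b-/- embryos were homozygous for a catalytically inactive allele, made by crossing mice with a loxP-flanked Dnmt3b gene to an ACTB-Cre deleter, a strain that expresses Cre throughout the body. They came from matings of heterozygous mice, and no treatment is named for either genotype. Counts on genes summed to between 41489332 and 58470286 in an embryo. The targeted gene was lower in every Dnmt3b-/- embryo, with Dnmt3b at 7287, 14003 and 6301 normalized counts in WT embryos 1, 2 and 3 and at 4076, 4557 and 4756 in Dnmt3b-/- embryos 1, 2 and 3 (log2 fold change -1.04, adjusted p = 0.0169, edgeR), and since the allele is catalytically inactive a transcript may remain.

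At this stage the red cells of the mouse are primitive erythroid cells, which arise in the blood islands of the yolk sac and enter the embryo as the heart begins to beat. They fill with embryonic haemoglobin, in which zeta-type chains from Hba-x pair with embryonic beta-type chains from Hbb-y and Hbb-bh1. The adult-type alpha chains come from Hba-a1 and Hba-a2. GATA1 and KLF1 are the transcription factors that switch on this programme, ALAS2 is the red cell form of the first enzyme of haem synthesis, and EPOR is the receptor through which erythropoietin sustains the cells.

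Both adult-type alpha globins, Hba-a1 and Hba-a2, were listed at a count of 0 in all 6 embryos. Their transcripts are 98.1% identical, and 83.9% of the 75-base windows of Hba-a1 and 83.2% of those of Hba-a2 also occur in another gene. The first 75 coding bases are shown to make this visible, read from the RefSeq annotation of GRCm38.p6, with capitals at the bases that differ from Hba-a1 in the alpha-type genes and from Hbb-bh1 in the beta-type genes.
Hba-a1: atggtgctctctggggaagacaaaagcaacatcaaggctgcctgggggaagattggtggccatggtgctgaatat
Hba-a2: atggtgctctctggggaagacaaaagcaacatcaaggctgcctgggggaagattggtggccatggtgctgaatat
Hba-x: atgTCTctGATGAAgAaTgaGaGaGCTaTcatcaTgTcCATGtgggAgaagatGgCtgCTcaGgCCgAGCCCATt
Hbb-bh1: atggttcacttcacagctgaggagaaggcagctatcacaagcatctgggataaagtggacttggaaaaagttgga
Hbb-y: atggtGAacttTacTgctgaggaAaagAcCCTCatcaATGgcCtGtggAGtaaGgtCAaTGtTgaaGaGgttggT

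These stretches lie at chr11:32283707-32283781 (plus strand) for Hba-a1, chr11:32296524-32296598 (plus strand) for Hba-a2, chr11:32276664-32276738 (plus strand) for Hba-x, chr7:103843036-103843110 (minus strand) for Hbb-bh1 and chr7:103853078-103853152 (minus strand) for Hbb-y, each within the first coding exon. Hba-a1 and Hba-a2 differed at 0 of the 75 bases, Hba-x differed from Hba-a1 at 38 and Hbb-y from Hbb-bh1 at 26. Hba-x, Hbb-y, Hbb-bh1 and the 4 other genes shared 0% of their windows with another gene. Across the table, 55.8% of the 453 protein-coding genes with 50 to 90% of their windows shared were at 0 in all embryos, against 9.42% of the 17028 with no shared window and 90.6% of the 309 with over 90% shared. The adult-type beta globins of the table, Hbb-b1, Hbb-b2, Hbb-bs and Hbb-bt, were also at 0 in all embryos. Hbb-bs shared 63% and Hbb-bt 64% of its windows, and for Hbb-b1 and Hbb-b2 no share was computed. These genes are given here only as listed at 0, and how the counting treated reads from near-identical copies was not tested. Of the 9 genes, 7 averaged 10 counts or more and were tested.

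The 3 counted globins were by far the most abundant of the genes. Per length, as FPKM (counts scaled to exon length and library size), Hbb-bh1 was at 782 ± 476 in WT and 436 ± 209 in Dnmt3b-/- embryos (mean ± SD, n = 3 each). Hbb-y was at 309 ± 263 and 251 ± 141 FPKM, and Hba-x at 281 ± 190 and 309 ± 121 FPKM. The other 4 genes had mean levels of 0.690 (Epor), 1.75 (Gata1), 2.73 (Klf1) and 4.66 (Alas2) FPKM over the 6 embryos. Differences between neighbours in this order were not tested. Hba-x was below Hbb-y in WT embryos 1 and 3 and above it in the other embryos. Klf1 was above Gata1 in every embryo but WT embryo 2 (1.58 against 1.91 FPKM). These are levels in whole embryos, where fewer red cells and less RNA in each cell cannot be told apart.

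In the sentences that follow, levels are normalized counts, which are raw counts divided by a library scale. Hba-x was at 9575, 2073 and 12755 normalized counts in WT embryos 1, 2 and 3 and at 12347, 9084 and 5373 in Dnmt3b-/- embryos 1, 2 and 3. The genotypes overlapped, and WT embryo 2 was the lowest of all. As a log2 fold change (Dnmt3b-/- over WT) the difference was 0.13 ± 0.56 (standard error, adjusted p = 0.871, edgeR).

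Hbb-y, the epsilon globin that normally accompanies Hba-x in primitive red cells, was at 11552, 451 and 15622 normalized counts in WT and at 10769, 8922 and 2764 in the Dnmt3b-/- embryos. WT embryo 2 was 34.6-fold below WT embryo 3 and was also below all Dnmt3b-/- embryos. The log2 fold change was -0.30 ± 0.94 (adjusted p = 0.829, edgeR).

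Hbb-bh1, the other embryonic beta-type chain, was at 23030, 8922 and 36922 normalized counts in WT and at 18510, 13602 and 6321 in the Dnmt3b-/- embryos. WT embryos 1 and 3 were above all Dnmt3b-/- embryos, and WT embryo 2 lay among them. Its log2 fold change was -0.84 ± 0.50 (adjusted p = 0.229, edgeR). Without WT embryo 2 it was -1.23 and passed the test (adjusted p = 0.0307, edgeR), as did 5228 of the 15121 genes then tested. The embryo was excluded after its values were known.

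**Figure D1:**
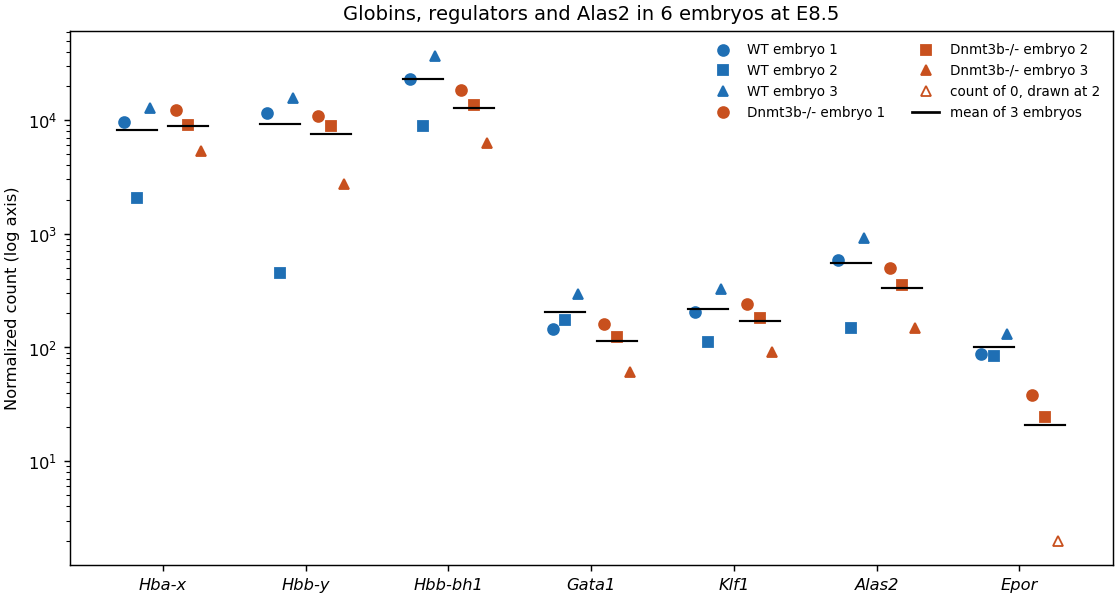
Normalized counts (log axis) of the 7 counted genes in each WT embryo (blue) and Dnmt3b-/- embryo (orange), with the mean of each genotype as a black line. WT embryo 3 is the highest for all 7 genes, WT embryo 2 is far below the other WT embryos for Hbb-y, and Epor has its Dnmt3b-/- embryos below all WT embryos, with a count of 0 in embryo 3 drawn at 2.

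Gata1, whose product is the master regulator of the erythroid programme, was at 147, 174 and 297 normalized counts in WT and at 160, 123 and 61.2 in the Dnmt3b-/- embryos. The genotypes overlapped, since Dnmt3b-/- embryo 1 was above WT embryo 1. Its log2 fold change was -0.84 ± 0.40 (adjusted p = 0.134, edgeR).

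Klf1, whose product drives globin transcription together with GATA1, was at 207, 112 and 328 normalized counts in WT and at 241, 183 and 90.7 in the Dnmt3b-/- embryos. WT embryo 2 was below Dnmt3b-/- embryos 1 and 2. The log2 fold change was -0.33 ± 0.45 (adjusted p = 0.597, edgeR).

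Alas2 was at 586, 149 and 923 normalized counts in WT and at 500, 355 and 150 in the Dnmt3b-/- embryos. WT embryo 2 and Dnmt3b-/- embryo 3 held nearly the same low level, at 149 and 150. The log2 fold change was -0.73 ± 0.61 (adjusted p = 0.389, edgeR), and without WT embryo 2 it was -1.17 (adjusted p = 0.0525, edgeR). Alas2 and Gata1 lie on the X chromosome, and Xist, which only cells with an inactive X transcribe, was at 14719, 4.59 and 13494 normalized counts in WT and at 11.0, 21920 and 3.40 in the Dnmt3b-/- embryos. The part of this difference between embryos in the levels of Alas2 and Gata1 was not tested.

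Epor was at 87.2, 85.0 and 130 normalized counts in WT and at 38.1, 24.5 and 0 in the Dnmt3b-/- embryos. It was the only one of the 7 genes whose genotypes did not overlap, and 51.8% of all genes tested had genotypes that did not overlap. Its log2 fold change was -2.25 ± 0.85 (adjusted p = 0.0691, edgeR), a level of 101 ± 25.4 in WT against 20.9 ± 19.3 in Dnmt3b-/- embryos (mean ± SD, n = 3 each). The 0 rests on raw counts of 38, 21 and 0, and at the depth of Dnmt3b-/- embryo 3 a count of 0 allows up to 3.40 normalized counts. Epor was among 12 genes at 0 in this embryo with at least 20 counts in each of the other 5, whereas the same count for the other embryos was between 0 and 2. Without this embryo the log2 fold change was -1.66 and passed the test (adjusted p = 0.0180, edgeR), as did 27.4% of all genes.

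None of the 7 tested genes passed an adjusted p of 0.05 in the comparison of all embryos, where 35.7% of the 15114 genes tested passed, 17.6% as higher and 18.1% as lower in Dnmt3b-/- embryos. Epor alone had an unadjusted p below 0.05 by edgeR and by limma. DESeq2 gave 2 such genes, Gata1 and Epor, and called Epor (adjusted p = 0.0174), where 40.2% of all genes passed. The median log2 fold change of the 7 genes was -0.73, against -0.03 for all genes tested. Without WT embryo 2 the test called 1 of the 7 genes, Hbb-bh1. There 5228 of the 15121 genes tested passed in either direction, and 17.6% of all genes passed as lower. With a trend on GC content and length removed 0 of the 7 genes passed, where 23.3% of all genes did. The log2 fold change was then -1.75 for Epor (adjusted p = 0.150, edgeR) and -0.56 for Gata1 (adjusted p = 0.298, edgeR).

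**Figure D2:**
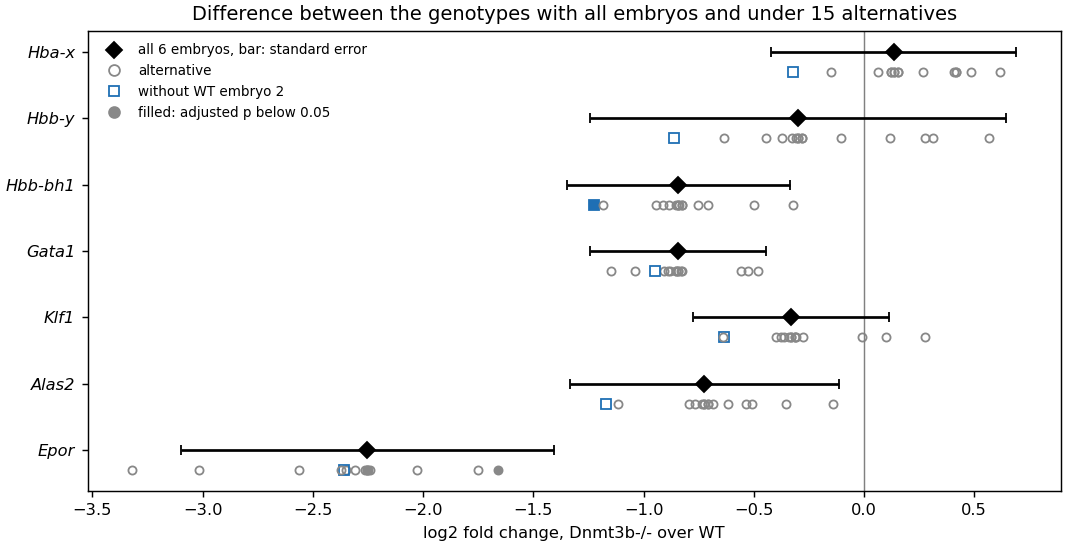
Log2 fold change (x axis, Dnmt3b-/- over WT) of each gene, as a black diamond with its standard error for all 6 embryos and as smaller symbols for 15 alternatives, filled where the adjusted p is below 0.05. Hba-x, Hbb-y and Klf1 fall on both sides of 0, whereas Hbb-bh1, Gata1, Alas2 and Epor stay below 0, and the filled symbols are Hbb-bh1 without WT embryo 2 (blue square) and Epor under 2 alternatives.

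The 7 genes varied far more between embryos of one genotype than most genes did. The SD of log2(normalized count + 1) within genotype was between 0.63 (Gata1) and 2.14 (Hbb-y), against a median of 0.15 over the 11870 genes averaging 100 counts or more. Gata1 exceeded 96.8% of these genes and Hbb-y 99.9%. Without WT embryo 2 the SDs still lay between 0.52 (Hba-x) and 0.89 (Hbb-y), apart from Epor at 2.37, which includes the count of 0 in Dnmt3b-/- embryo 3. Epor averaged fewer than 100 counts, and the genes compared were not matched on count level. The genes also ordered the embryos alike. WT embryo 3 was the highest of all 6 embryos for 7 of 7 genes, Dnmt3b-/- embryo 1 was above Dnmt3b-/- embryo 2 and this above Dnmt3b-/- embryo 3 for 7 of 7, and WT embryo 2 was the lowest WT embryo for 6 of 7, the exception being Gata1.

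The proportions of the globins within an embryo do not depend on the scale of its library. Hba-x held 27.7, 22.1 and 24.3 counts for every 100 counts of Hbb-y and Hbb-bh1 in WT embryos 1, 2 and 3, and 42.2, 40.3 and 59.1 in Dnmt3b-/- embryos 1, 2 and 3. The genotypes did not overlap, as was so for 51.8% of single genes tested, and how often other ratios overlap was not computed. The mean log2 ratio was -2.02 ± 0.16 in WT and -1.10 ± 0.30 in Dnmt3b-/- embryos, a difference of 0.92 (SD, n = 3 each, two-sided exact permutation test, p = 0.1, adjusted p = 0.30 over 3 globin shares). A p of 0.1 is the smallest that 3 against 3 embryos can give. The difference was between 0.75 and 1.02 when single embryos were left out, and 0.84 without WT embryo 2.

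Against Hbb-bh1 alone, Hba-x held 41.6, 23.2 and 34.6 counts per 100 counts of Hbb-bh1 in WT and 66.7, 66.8 and 85.0 in the Dnmt3b-/- embryos, again without overlap. Against Hbb-y alone it held 82.9, 459 and 81.7 counts per 100 in WT and 115, 102 and 194 in the Dnmt3b-/- embryos, where WT embryo 2 was the highest of all. The exons of Hba-x contain 55.2% GC, those of Hbb-y 49.1% and those of Hbb-bh1 47.1%. Genes lower in Dnmt3b-/- embryos had a median GC content of 55.7% and higher genes one of 45.0%. Once a trend on GC content and length was removed, the log2 fold change was 0.48 for Hba-x, -0.33 for Hbb-y and -0.94 for Hbb-bh1. The ratios were not computed with this trend removed, and the part of GC content in them was not tested.

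Between the beta-type globins, Hbb-bh1 made up 66.6, 95.2 and 70.3% of their counts in WT and 63.2, 60.4 and 69.6% in the Dnmt3b-/- embryos. The mean difference of -13.0 percentage points was within the spread (two-sided exact permutation test, p = 0.2, adjusted p = 0.30), and without WT embryo 2 it was -4.04. The excess of Hbb-bh1 in WT embryo 2 was the reverse side of its low Hbb-y, with 5.06 counts of Hbb-y per 100 of Hbb-bh1 against 42.3 to 65.6 in the other embryos. Of the alpha-type counts Hba-x held all in every embryo because Hba-a1 and Hba-a2 were listed at 0, so that its share could not be compared.

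The globins together held 0.0953, 0.0240 and 0.140% of all counts in WT and 0.0869, 0.0638 and 0.0283% in the Dnmt3b-/- embryos, with overlap (two-sided exact permutation test, p = 0.5, adjusted p = 0.50). Per 10000 globin counts, Alas2 held 133, 130 and 141 counts in WT and 120, 112 and 104 in the Dnmt3b-/- embryos. The genotypes did not overlap, as was so for 51.8% of single genes tested, and the level of Alas2 itself varied 6.18-fold among the WT embryos. The mean log2 ratio of Alas2 to the globins differed by -0.27 (two-sided exact permutation test, p = 0.1, adjusted p = 0.20 over the 4 ratios), and by -0.61 against the geometric mean of the counted globins. Epor held 19.7, 74.2 and 19.9 counts per 10000 in WT and 9.15, 7.75 and 0 in the Dnmt3b-/- embryos, also without overlap (exact permutation test, p = 0.1, adjusted p = 0.20). The exons of Alas2 contain 52.7% GC and those of Epor 59.6%, against 47.1 to 55.2% in the counted globins. The part of GC content in these ratios was not tested.

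The 2 transcription factors behaved otherwise. Gata1 held 33.2, 152 and 45.5 counts per 10000 globin counts in WT and 38.5, 38.8 and 42.3 in the Dnmt3b-/- embryos. Klf1 held 46.8, 98.3 and 50.3 in WT and 58.01, 57.97 and 62.71 in the Dnmt3b-/- embryos. Both were nearly constant among the Dnmt3b-/- embryos and highest in WT embryo 2, and neither passed a test between the genotypes (exact permutation tests, p = 0.6 for Gata1 and p = 1.0 for Klf1, adjusted p = 0.80 and 1.00). Without WT embryo 2 the mean log2 ratio differed by 0.04 for Gata1 and 0.30 for Klf1, the opposite direction to that with all embryos.

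**Figure D3:**
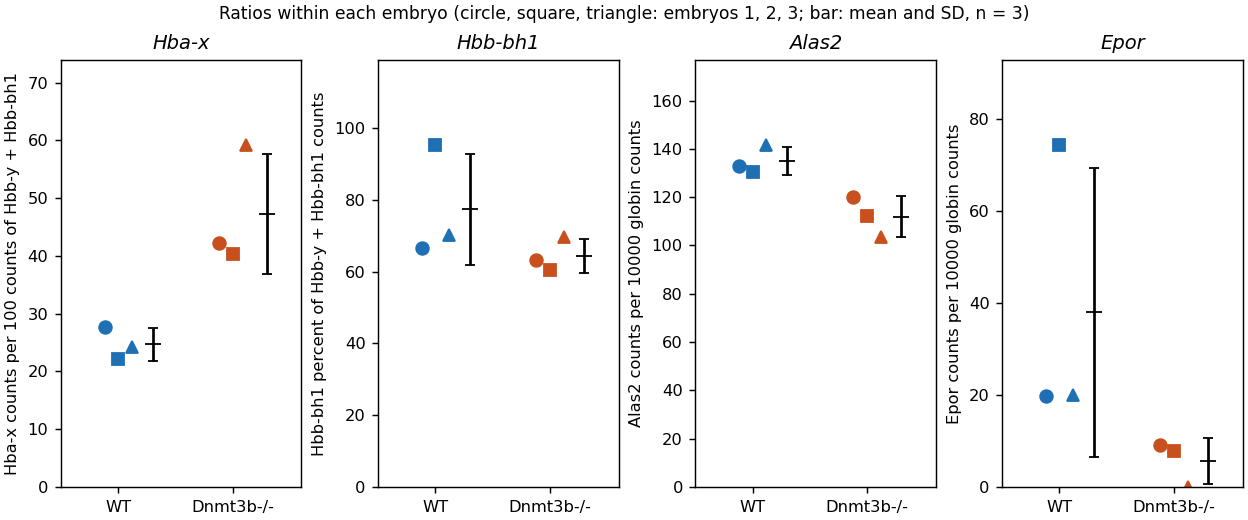
Ratios within each embryo, with 1 symbol per embryo (WT blue, Dnmt3b-/- orange) and the mean and SD of each genotype beside them. Hba-x against the beta-type globins and Alas2 and Epor against all globin counts do not overlap between the genotypes, whereas the share of Hbb-bh1 overlaps and has WT embryo 2 at 95.2%.

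WT embryo 2 also stood apart outside these genes. The 10 yolk sac endoderm markers, genes of the absorptive layer that covers the blood islands such as Apob and Afp, summed to 60051, 191398 and 22177 normalized counts in WT and to 43901, 28397 and 12176 in the Dnmt3b-/- embryos, and all 10 were highest in WT embryo 2. Of these markers 1 of 10 passed the test, Amn, with a log2 fold change of -2.59 (adjusted p = 0.0429, edgeR), and 0 of 10 passed without WT embryo 2, where that of Amn was -1.31 (adjusted p = 0.127, edgeR). Of the 7 neural tube markers 5 were lowest in WT embryo 2, and Sox1 and Sox2 were not. Olig2 and Zic1, which were named after their values were seen, were at 11 and 53 normalized counts in it against at least 125 and 719 in every other embryo. Lars2 was at 51487 normalized counts in it and at 417 or less elsewhere. Rn45s, a precursor of ribosomal RNA that the library kit is meant to remove, was at 472356, 968367 and 459858 normalized counts in WT and at 166120, 137006 and 108502 in the Dnmt3b-/- embryos (log2 fold change -2.21, adjusted p = 0.00136, edgeR), and its part in the other values was not tested. Leaving Rn45s, other structural and small RNAs, and Lars2 out of the total moved the difference in the globin share of counts from -0.0267 to -0.0278 percentage points. The part of tissue composition in the levels of the erythroid genes was not tested. Summed over the 9 genes, levels were 45185, 11967 and 66977 normalized counts in WT and 42565, 32293 and 14760 in Dnmt3b-/- embryos. The endoderm sum thus had the same order of embryos as the 9 genes in Dnmt3b-/- and the reverse order in WT.

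Markers of most other blood lineages were near 0. The 8 markers of granulocytes and of maternal white cells summed to between 0 and 20.4 normalized counts in an embryo, and 5 of them were at 0 in all. Of the megakaryocyte and platelet markers only Itga2b, an integrin also found on early blood progenitors, passed the filter, and it fell in Dnmt3b-/- embryos (log2 fold change -0.78, adjusted p = 0.0281, edgeR). It did not pass without WT embryo 2 (-0.64, adjusted p = 0.0708, edgeR) or with a trend on GC content and length removed (-0.26, adjusted p = 0.439, edgeR). Its fellow marker Pf4 had at most 7 normalized counts in any embryo. Of the endothelial markers 3 of 8 fell and 0 rose, where 18.1% of all genes tested passed as lower. Those that fell were the receptor Kdr (-0.46, adjusted p = 0.00633, edgeR), Egfl7 (-0.75, adjusted p = 0.0125, edgeR) and Esam (-0.97, adjusted p = 0.0122, edgeR), Esam being named after its values were seen. With the GC and length trend removed 2 of the 8 fell, and Egfl7 did not pass (-0.19, adjusted p = 0.336, edgeR). Among the macrophage and leukocyte markers 1 of 3 tested rose, the lysosomal Cd68 (0.90, adjusted p = 0.0342, edgeR), where 17.6% of all genes tested passed as higher. Mrc1 (-0.58, adjusted p = 0.399, edgeR) and Csf1r (0.09, adjusted p = 0.919, edgeR) did not pass. The other markers of this list averaged fewer than 10 counts and were not tested. Of the cardiac muscle markers Tnnt2 rose and Myl4 and Nkx2-5 fell (1 and 2 of 8). Of the neural tube markers Sox1 and Pax6 rose and Sox2 fell (2 and 1 of 7). Both are to be set beside the 35.7% of all genes tested that passed in either direction. Nkx2-5 was named after its values were seen. Without WT embryo 2, 5 of the cardiac markers fell, where 17.6% of all genes passed as lower. With the GC and length trend removed 0 of them fell, and Myl4 was at -0.36 (adjusted p = 0.291, edgeR) and Nkx2-5 at -0.01 (adjusted p = 0.981, edgeR). Under the same correction Sox1 alone of the neural tube markers passed (1.01, adjusted p = 0.00856, edgeR).

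**Figure D4:**
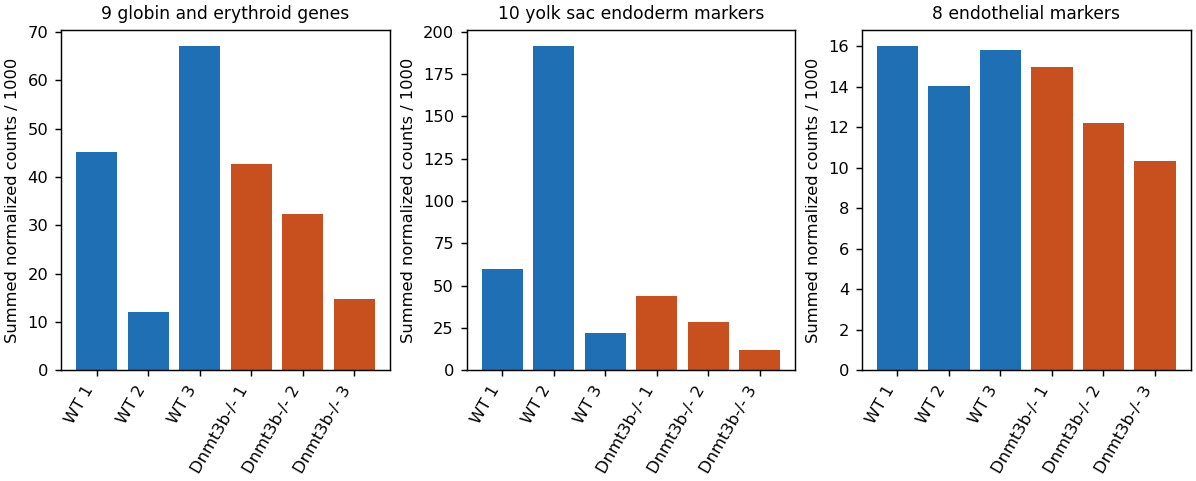
Summed normalized counts (axis divided by 1000) of the 9 globin and erythroid genes, the 10 yolk sac endoderm markers and the 8 endothelial markers in each embryo. WT embryo 2 has the lowest sum for the erythroid genes (11967) and the highest for the endoderm markers (191398), and Dnmt3b-/- embryo 3 has the lowest sum for both marker lists.

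Sequences upstream of the genes are shown for the globin pair and for the enzyme and receptor whose ratios to the globins did not overlap. They are the 250 bases before the annotated start, from the RefSeq promoters of GRCm38.p6, which held 8 of the 9 genes. Capitals mark the letters GATAA (the core of GATA sites, either strand), CCNCNCCC (the CACC box read by KLF1, either strand), CCAAT (either strand) and TATAA (as written).
Hba-x: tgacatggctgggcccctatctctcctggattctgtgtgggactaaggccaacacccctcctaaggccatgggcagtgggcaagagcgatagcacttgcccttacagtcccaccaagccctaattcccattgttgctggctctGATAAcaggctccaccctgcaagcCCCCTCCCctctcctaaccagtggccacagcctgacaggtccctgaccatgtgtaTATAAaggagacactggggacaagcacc
Hbb-y: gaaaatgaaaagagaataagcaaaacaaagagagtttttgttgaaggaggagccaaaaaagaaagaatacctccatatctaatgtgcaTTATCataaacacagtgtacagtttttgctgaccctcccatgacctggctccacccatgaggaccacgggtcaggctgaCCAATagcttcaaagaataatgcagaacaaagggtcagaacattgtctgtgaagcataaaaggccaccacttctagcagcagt
Alas2: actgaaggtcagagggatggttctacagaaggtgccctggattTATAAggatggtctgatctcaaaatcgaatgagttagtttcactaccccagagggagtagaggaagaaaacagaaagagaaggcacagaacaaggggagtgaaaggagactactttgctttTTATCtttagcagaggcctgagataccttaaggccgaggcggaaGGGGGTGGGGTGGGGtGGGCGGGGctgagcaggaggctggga
Epor: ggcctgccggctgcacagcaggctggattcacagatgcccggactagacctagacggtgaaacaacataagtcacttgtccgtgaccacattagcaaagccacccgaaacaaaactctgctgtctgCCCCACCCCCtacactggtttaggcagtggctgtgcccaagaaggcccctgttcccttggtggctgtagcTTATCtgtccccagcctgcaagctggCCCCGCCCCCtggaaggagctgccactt

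These stretches lie at chr11:32276350-32276599 (plus strand), chr7:103853208-103853457 (minus strand), chrX:150547167-150547416 (plus strand) and chr9:21963577-21963826 (minus strand). GATAA was found in 7 of the 8 upstream stretches, all but that of Gata1, and in 22.6% of the 32851 RefSeq promoters. CCNCNCCC was found in 4 of the 8 (45.9% of all promoters), CCAAT in 4 (33.8%) and TATAA in 4 (16% of all promoters). CCNCNCCC matches may overlap each other, as the first 3 of the 4 in Alas2 do. CCNCNCCC occurred upstream of Hba-x, Gata1, Alas2 and Epor, with 3 matches in Gata1 and 4 each in Alas2 and Epor. These are matches of letters only.

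The genes around the 9 in the red cell pathway were read from 6 further lists, with 62 tested genes, of which 5 rose and 9 fell in Dnmt3b-/- embryos and the median log2 fold change was -0.16. These 14 genes are 22.6% of the 62, where 35.7% of all genes tested passed. With the GC and length trend removed, 7 rose and 5 fell, which is 19.4% where 23.3% of all genes passed. Among the 8 enzymes of haem synthesis other than ALAS2, 2 rose and 4 fell. Cpox, which acts near the end of the pathway, rose from 2233, 2607 and 2341 normalized counts in the WT embryos to 4298, 4205 and 3967 (log2 fold change 0.80, adjusted p = 0.000602, edgeR). Urod fell by 0.45 on the log2 scale (adjusted p = 0.0107, edgeR), and Fech, which inserts the iron, had a log2 fold change of 0.24 (adjusted p = 0.152, edgeR). Alas1, the housekeeping form of ALAS2, rose (0.35, or 0.59 with the GC and length trend removed), and Alad (-0.50) and Ppox (-0.84) were among those that fell, all 3 named after their values were seen. With the GC and length trend removed, the falls of Alad, Urod and Ppox no longer passed (adjusted p = 0.0675, 0.196 and 0.0968, edgeR).

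Of the 12 tested genes of iron and haem handling, 2 fell and 0 rose. Ftl1, the light chain of the iron store ferritin, was at 36107, 42893 and 39517 normalized counts in WT and at 18088, 14937 and 13697 in the Dnmt3b-/- embryos (log2 fold change -1.34, adjusted p = 0.000431, edgeR), and its log2 fold change was -0.83 with the GC and length trend removed. Its heavy chain gene Fth1 had a log2 fold change of -0.29 (adjusted p = 0.197, edgeR), and the transferrin receptor Tfrc one of 0.13 (adjusted p = 0.271, edgeR). The other gene that fell, the mitochondrial carrier Slc25a38 (-0.42, adjusted p = 0.0450, edgeR), was named after its values were seen, and no longer passed without WT embryo 2 (adjusted p = 0.101, edgeR) or with the GC and length trend removed (adjusted p = 0.667, edgeR).

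None of the 16 genes of the red cell membrane and skeleton passed the test, and their median was -0.23. Slc4a1, the band 3 anion exchanger, was at 1177, 52 and 1635 normalized counts in WT and at 1011, 769 and 366 in the Dnmt3b-/- embryos, and is named for sharing the dip of Hbb-y in WT embryo 2. Of the 16 genes, 10 were lowest in WT embryo 2, as were 20.7% of all genes tested. Without WT embryo 2, Sptb (-1.06, adjusted p = 0.0235, edgeR) and Add2 (-0.96, adjusted p = 0.0157, edgeR) passed as lower, both cytoskeletal genes named after their values were seen. With the GC and length trend removed Epb4.1, the protein 4.1 gene of the membrane skeleton, passed as higher (0.32, adjusted p = 0.0208, edgeR).

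Of the 14 tested erythroid transcription factors and cofactors, 2 rose and 0 fell. Myb, which keeps blood progenitors in an immature state, was at 133, 165 and 123 normalized counts in WT and at 277, 309 and 299 in the Dnmt3b-/- embryos (log2 fold change 1.07, adjusted p = 0.00405, edgeR). Klf3, a repressor that binds the same CACC boxes as KLF1, rose from 1549, 1273 and 1554 to 2497, 2765 and 3739 normalized counts (1.04, adjusted p = 0.00202, edgeR). The LIM partners Lmo2 (0.28, adjusted p = 0.0673) and Ldb1 (-0.08, adjusted p = 0.521) did not pass by edgeR, but both passed as higher with the GC and length trend removed (adjusted p = 0.0319 and 0.00198, edgeR).

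Of 10 genes of erythropoietin and Kit signalling, 1 rose and 3 fell. Socs3, an inhibitor of cytokine signalling, was at 715, 651 and 637 normalized counts in WT and at 232, 277 and 185 in the Dnmt3b-/- embryos (log2 fold change -1.53, adjusted p = 0.000825, edgeR), and its log2 fold change was -0.96 with the GC and length trend removed. The kinase Pim1 fell (-0.69, adjusted p = 0.00370, edgeR), and Jak2, the kinase bound to EPOR, rose (0.39, adjusted p = 0.00389, edgeR), and with the GC and length trend removed neither passed (-0.32 for Pim1, adjusted p = 0.123, and 0.15 for Jak2, adjusted p = 0.153, edgeR). Stat5b, which carries the EPOR signal to the nucleus, fell (-0.78, adjusted p = 0.0115, edgeR) and is named after its values were seen. Kitl, the ligand of KIT, had a log2 fold change of 0.04 (adjusted p = 0.745, edgeR), and passed as lower with the same trend removed (-0.51, adjusted p = 0.00283, edgeR). Myb, Klf3, Ftl1 and Socs3 are transcribed in many tissues of an embryo, so these whole-embryo values do not belong to red cells alone.

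**Figure D5:**
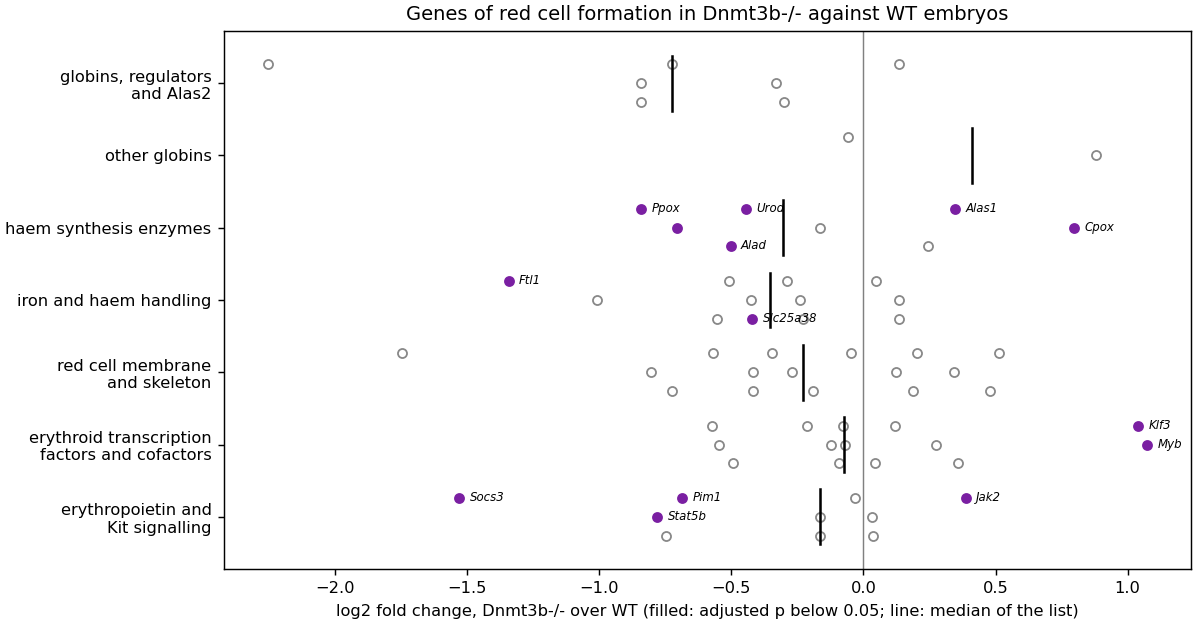
Log2 fold changes (x axis, Dnmt3b-/- over WT) of the tested genes in each red cell list, filled where the adjusted p is below 0.05, with the median of the list as a black line. None of the globins, regulators and Alas2 is filled, whereas the haem enzymes have filled genes on both sides of 0.

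Among the 11864 other genes averaging 100 counts or more, those whose levels followed the mean profile of the 7 genes most closely over the 6 embryos were read from the root mean square difference of centred log2 values, which had a median of 0.98 over these genes. Ank1, the ankyrin of the red cell skeleton, was the closest, at 0.21. The next included Fam181a (0.30), Lum (0.32), Colec10 (0.35), Col3a1 (0.36), Lyl1 (0.37), Upk3b (0.38), Cadm4 (0.40) and Wnt7b (0.40). Of the genes named here, Ank1 and Lyl1 belong to the red cell lists. Of the 7 genes themselves, Hbb-bh1 (0.19) and Alas2 (0.20) lay closest to their mean profile, and Epor lay farthest from it (1.76), followed by Hbb-y (1.19).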

How the data were processed

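RNA-Seq of 3 WT and 3 Dnmt3b-/- E8.5 embryos was analysed. Ribosomal RNA had been removed from total RNA before stranded libraries were prepared, and reads were paired with 75 bases each. Per the labels, the authors aligned the reads with TopHat2 2.0.12 to mm10 and made the raw counts with HTSeq 0.6.0 in RefSeq exons. The strand setting of the counting is not given in the sources used here. The authors also deposited a normalized signal (raw counts over a DESeq2 1.4.5 size factor), used only to read the size factors. The deposited log2 fold changes and adjusted p-values of the authors' own DESeq2 comparison were not used, and the methylation libraries were not analysed here.

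Counts were scaled with TMM, and 15114 genes averaging 10 counts or more were compared in R 4.3.3 by quasi-likelihood (edgeR 4.0.16), genotype being the only term and Benjamini-Hochberg adjustment over all of them. The threshold was an adjusted p of 0.05. Normalized counts are counts on the TMM scale of the mean library, and FPKM used RefSeq exon lengths of GRCm38.p6. Ratios within embryos were compared with two-sided exact permutation tests, after adding 0.5 to the count of each regulator and of Alas2. A floor of 3 counts equals 2.38 to 3.50 normalized counts, and it covers counting error only, since reads without molecular identifiers are not independent molecules. Fits were tested on simulated data.

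The genes and lists were chosen with earlier results of these data known. Named genes were the 9 themselves, of each list the genes called with a fold change above 2 and the 4 with the highest FPKM, and the 10 most similar genes. Genes outside the rule are marked in the text, and 2 genes under it are not reported here. Alternatives were DESeq2 1.42.0, limma 3.58.1, other scalings and filters, a trend on GC content and length removed, a replicate block, and each embryo left out. Python 3.11.15 (pandas 2.3.3, numpy 2.4.6) drew the figures.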

Additional observations from a re-analysis of the deposited data

How the results depend on the processing

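Under 15 alternatives for the genotype comparison, the count of called genes among the 7 moved from 0 to 1 with DESeq2 (Epor, where 40.2% of all genes passed). It also moved to 1 without WT embryo 2 (Hbb-bh1, where 5228 of 15121 genes passed) and without Dnmt3b-/- embryo 3 (Epor, where 27.4% of all genes passed). The count was between 0 and 1 when single embryos were left out. The median log2 fold change of the 7 genes was between -1.12 and -0.14 with each embryo left out. The direction of Hbb-y turned with limma (0.57), with the replicate block (0.28), without WT embryo 3 (0.32) and without Dnmt3b-/- embryo 3 (0.12), and ranged from -0.86 to 0.32 with embryos left out. Klf1 turned with the GC and length trend removed (0.28) and without WT embryo 3 (0.10), with a leave-out range of -0.64 to 0.10. Hba-x turned without WT embryo 2 (-0.32) and without Dnmt3b-/- embryo 1 (-0.15), with a leave-out range of -0.32 to 0.61. Hbb-bh1, Gata1, Alas2 and Epor stayed negative under all 15. The difference in the globin share of all counts was between -0.0579 and 2.62e-05 percentage points with embryos left out, and so vanished without WT embryo 3. The log2 ratio difference ranged from -1.06 to 0.04 for Gata1 and from -0.24 to 0.30 for Klf1 with embryos left out, both turning without WT embryo 2. For the 6 other erythroid lists, alternatives added after seeing the data gave 8 higher genes with DESeq2 and 5 lower genes with the GC and length trend removed. The causes were not tested.

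The genotypes share replicate numbers, and the deviations of same-numbered embryos from their genotype mean correlated at -0.05, -0.15 and -0.01 over genes. Those of different-numbered embryos correlated at between -0.083 and 0.135. Deviations from a mean of 3 embryos are bound to each other, so these values cannot decide whether the numbers pair the embryos. With the replicate block 0 of the 7 genes passed, the median log2 fold change was -0.51, and the mean difference in the globin share was -0.0267 percentage points. The share of Hba-x among the alpha-type globins had no alternative, since its partners were listed at 0, and the geometric mean used the 3 counted globins for the same reason, which gave log2 ratio differences of -0.96 for Gata1, -0.39 for Klf1 and -3.68 for Epor. With 3 embryos per genotype the spread of these genes limits what could be detected, and Epor rests on the fewest counts.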
